A study of Mus musculus with 8 samples.

Results

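Paneth cells of the mouse small intestine were examined among the sorted single cells of 1 tissue library. A cell barcode was taken as a Paneth cell when at least 500 genes were detected in it, when at most 20% of its unique molecular identifiers (UMIs, each standing for 1 captured RNA molecule) came from mitochondrial (mt-) genes, and when genes whose symbol starts with Defa, the alpha-defensins, held at least 20% of its UMIs. The Paneth barcodes were thus chosen by measured values, their UMIs of Defa and mt- genes and their number of genes. This gave 199 Paneth barcodes of 2756 that passed the first pair of limits (7.22%, exact binomial 95% interval 6.28% to 8.25%), of 8842 in the library and of 28486 barcodes and spots in the series. The series held 8 libraries of mouse intestine. Of these, 4 were made from dissociated cells in droplets: small intestinal organoids grown alone, small intestinal organoids grown in coculture, sorted small intestinal tissue and sorted large intestinal tissue. The other 4 were Visium spatial libraries on 10 µm cryosections, with 2 sections of small and 2 of large intestine, which the labels call technical duplicates. The labels do not name the partner of the coculture. Total UMIs ran from 46236011 to 142501907 in the single-cell libraries, with 78482770 in sorted small intestine, and from 24356162 to 43833127 in the sections.

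All groups are of the C57BL/6 background, per the labels. Each organoid library pooled 16 wells at passage 1, from which 100000 epithelial cells were sorted. The tissue came from C57BL/6 and Lgr5-eGFP-ires-CreERT2 mice, in which the Lgr5 locus drives a green fluorescent protein and a tamoxifen-dependent Cre. For each tissue library, 50000 living cells were combined with 50000 LGR5+ cells and with 20000 to 25000 lymphatic endothelial cells positive for CD31, PDPN and LYVE1. A share of Paneth barcodes therefore describes this sorted mixture and not the tissue. Every group had 1 library, apart from the sections, so no test between groups was possible. Intervals are 95% intervals that cover counting error only, since cells of 1 library are not replicates.

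Paneth cells are secretory cells at the base of the small intestinal crypts, next to the stem cells. They store antimicrobial proteins in large granules and release them into the crypt lumen, and they supply the stem cells with signals such as Wnt, epidermal growth factor and Notch ligands. The alpha-defensins, called cryptdins in mice, are short peptides that disrupt bacterial membranes. Their precursors are cut to the active form by the protease matrilysin, the product of Mmp7.

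The defining markers other than the defensins were present in nearly every Paneth barcode. Lyz1, the Paneth cell lysozyme, and Mmp7 each had a UMI in all 199 barcodes, and Mptx2, a mucosal pentraxin, in 197. At least 1 UMI of Epcam, the epithelial adhesion molecule, was found in 184. Detection alone separates Paneth barcodes only in part. Lyz1, Mptx2 and Mmp7 also had a UMI in 95.5%, 46.7% and 34.1% of 1687 other Epcam-positive barcodes that passed the limits. The barcodes held a median of 22125 UMIs (2006 to 182951) and 2017 genes, with a median of 3.25% mt- UMIs. The Defa share, which chose them, ran from 21.5% to 71.5% with a median of 50.8%. Just inside the limit lay barcodes with 21.47%, 21.48% and 21.49%, and just outside it barcodes with 19.81%, 19.54% and 19.44%. In all, 650 barcodes had a Defa share of at least 20%, but 451 of them failed the limits on genes (380) or mt- UMIs (91). Of the library's 8842 barcodes, 5497 exceeded the mt- limit. No Paneth barcode occurred in another single-cell library, and the 61 barcodes with the highest doublet scores included 4 Paneth barcodes.

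The promoter windows of 4 alpha-defensin sequences are shown first, because Paneth barcodes differed from each other in their mix of defensin transcripts, and because some of these genes have the same window. The windows are from RefSeq (build GRCm38.p6) and run from 250 bases before to 50 bases after the annotated start of transcription, 5′ to 3′ on the strand of the gene. Capitals mark the matches to 2 motifs. One is TATAAA, found in the TATA box. The other is CTTTGA, core letters of the sequence bound by the TCF and LEF factors of Wnt signalling, which in these windows was read from the opposite strand. Both strands were searched and the motifs did not overlap.
Defa21 and Defa22: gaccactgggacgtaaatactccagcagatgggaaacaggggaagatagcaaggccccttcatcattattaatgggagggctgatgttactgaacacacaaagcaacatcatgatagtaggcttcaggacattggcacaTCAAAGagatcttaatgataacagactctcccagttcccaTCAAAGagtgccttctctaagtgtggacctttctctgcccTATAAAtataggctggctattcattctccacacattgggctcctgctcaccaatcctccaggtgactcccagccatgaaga
Defa23 and Defa31: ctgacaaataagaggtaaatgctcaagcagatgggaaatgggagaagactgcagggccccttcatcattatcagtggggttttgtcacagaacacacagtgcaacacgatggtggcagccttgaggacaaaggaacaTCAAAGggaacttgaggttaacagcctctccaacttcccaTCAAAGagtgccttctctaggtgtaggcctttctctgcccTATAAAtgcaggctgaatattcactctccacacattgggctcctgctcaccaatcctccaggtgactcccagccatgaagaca
Defa30: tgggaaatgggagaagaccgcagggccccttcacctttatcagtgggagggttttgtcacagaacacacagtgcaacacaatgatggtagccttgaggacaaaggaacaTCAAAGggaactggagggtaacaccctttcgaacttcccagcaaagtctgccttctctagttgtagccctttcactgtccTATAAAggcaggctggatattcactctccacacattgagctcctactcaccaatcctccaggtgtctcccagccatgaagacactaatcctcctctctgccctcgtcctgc
Defa38: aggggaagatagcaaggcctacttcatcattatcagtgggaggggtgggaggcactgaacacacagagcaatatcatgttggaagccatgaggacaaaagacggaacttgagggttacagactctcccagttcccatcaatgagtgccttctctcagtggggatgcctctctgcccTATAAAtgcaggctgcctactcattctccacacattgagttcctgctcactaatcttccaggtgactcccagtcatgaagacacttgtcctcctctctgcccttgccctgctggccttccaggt

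All of these windows lie on chromosome 8. The windows of Defa21 (chr8:21025295-21025594, plus strand) and Defa22 (chr8:21162027-21162326, plus strand) were identical in all 300 bases, and so were those of Defa23 (chr8:21054790-21055089, plus strand) and Defa31 (chr8:21191323-21191622, plus strand). The Defa30 window (chr8:21134400-21134699, plus strand) matched that of Defa21 in 66.7% of aligned columns, and the Defa38 window (chr8:21096001-21096300, minus strand) in 62.6%. Of 120 pairs among 16 Defa windows, 5 were identical and the median identity was 72.4%. Gaps counted as columns, with 330 columns for Defa30 and 350 for Defa38 against Defa21. The windows were offset from each other, with TATAAA at -31 from the start in Defa21, -61 in Defa30 and -74 in Defa38. These identities therefore also depend on the annotated starts. CTTTGA occurred at 2 positions in the window of Defa21 and Defa22, at 2 in that of Defa23 and Defa31, at 1 in that of Defa30, and at none in that of Defa38. It was found in 13 of the 16 Defa windows and in 16.0% of 32851 windows of all genes. TATAAA was found in 15 of the 16 Defa windows and in 13.6% of all windows. Of the 22 Defa genes counted, 12 had a window. Defa24, the gene with the most UMIs, and Defa29 had none, so the motif counts leave them out.

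The 22 Defa genes together had 5114178 UMIs in the Paneth barcodes, 54.7% of all their UMIs, and these were 83.9% of the Defa UMIs of the library. Defa24 led in each of the 199 barcodes. It held 60.8% of the Defa UMIs, with a range over barcodes from 40.2% to 96.9% and a median of 63.8%. Defa30 held 16.6% (0.893% to 27.7%), Defa21 8.56%, Defa22 8.42% and Defa29 2.94%. The first 5 genes thus made up 97.3% of the UMIs of Defa-prefixed genes, and each of the other 17 held under 1%. Alpha-defensins counted under other symbols are not in these sums. One of them, Gm14851, had 545348 UMIs, more than Defa21 or Defa22. These values took part in the choice of the barcodes and are a description.

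Several of these genes are near-identical copies, and the counting may have split or merged reads among them. Defa23 and Defa31, with identical windows, had 24788 and 34 UMIs, and Defa36 and Defa37, also with identical windows, had 21726 and 9. Defa21 and Defa22 had 437926 and 430858. Levels of single copies are therefore uncertain.

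The share of Defa21 plus Defa22 differed widely between Paneth barcodes. It ran from 0.197% to 46.6% of a barcode's Defa UMIs with a median of 12.9%, and was under 5% in 45 barcodes, between 5% and 20% in 90 and at least 20% in 64. The shares of Defa21 and Defa22 went together across barcodes (Spearman's rho 0.89, n = 199 barcodes of 1 library), and that of Defa21 ran against that of Defa24 (rho -0.90). Shares of 1 sum are not free of each other. The combined share had a rho of -0.06 with the UMIs of the barcode, 0.09 with its mt- share and 0.26 with its Defa share.

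Rnase1, a secreted ribonuclease of the pancreatic type, had the strongest rank correlation with this share among 372 genes examined. Its level per 10000 non-Defa UMIs ran from 0.906 to 64.7 (median 9.91) in the 66 barcodes with the lowest Defa21 plus Defa22 share, and from 0 to 10.1 (median 1.55) in the 66 with the highest. The ranges overlapped. All 66 of the former had a Rnase1 UMI and 46 of the latter, at median depths of 29529 and 19773 UMIs. Summed, Rnase1 stood at 1335 UMIs per 1000000 non-Defa UMIs (CPM) in the low and 300.4 CPM in the high barcodes, a log2 ratio of -2.15 on 2147 and 400 UMIs. Spearman's rho between its level and the share was -0.64 over 199 barcodes and -0.64 over the 148 with at least 10000 UMIs.

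Few other genes differed by this much. The 372 genes had no Defa symbol, at least 500 UMIs in the Paneth barcodes and a UMI in at least 50% of them. Genes of mt-, ribosomal protein, Gm-numbered, Rik and sex genes were left out, and so was Gm14851, a defensin under another symbol. Of the 372, 4 were at least 2-fold lower in the barcodes with the highest share (1.08%) and 2 at least 2-fold higher (0.538%). The other lower genes were Olfm4, a marker of crypt base columnar stem cells (-1.78), Npm1, a nucleolar protein (-1.07), and Fabp6, the ileal bile acid binding protein (-1.04). The higher ones were Nupr1, a nuclear protein of the stress response (1.13), and Reg3g, a lectin that kills Gram-positive bacteria (1.13). Over single barcodes these 5 genes followed the share less than Rnase1 did, with Spearman's rho between -0.11 (Fabp6) and 0.29 (Nupr1). That of Olfm4 was 0.18, opposite in sign to its ratio of sums.

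**Figure D1:**
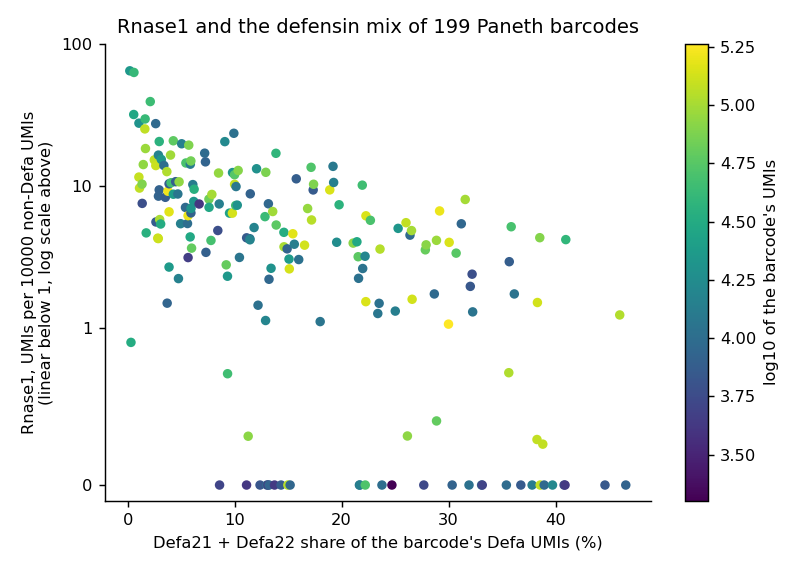
Rnase1 (y axis, UMIs per 10000 non-Defa UMIs, linear below 1 and logarithmic above) against the share of Defa21 plus Defa22 in the Defa UMIs (x axis, %) for 199 Paneth barcodes, coloured by depth. Barcodes without a Rnase1 UMI lie at shares of 8.59% and above, and the highest level, 64.7, belongs to the barcode with the lowest share.

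In 7 Paneth barcodes Defa30 held under 5% of the Defa UMIs (0.893% to 3.92%), and in the other 192 at least 5.32%. The 7 were singled out after their values were seen, and no test is given for them. Defa24 held 82.2% to 96.9% of their Defa UMIs, against at most 77.2% in the other 192. Both are shares of 1 sum, so the choice by low Defa30 itself raises the Defa24 share. They were of middle depth, with 22295 to 48231 UMIs and 2959 to 5046 genes, had 1.45% to 3.25% mt- UMIs, all held Epcam UMIs, and none was among the barcodes with the highest doublet scores. Their Defa share was 21.5% to 44.6% (median 27.5%, against 51.6% in the others).

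Some granule proteins differed more than others between these 7 barcodes and the rest. The genes compared here and in the next paragraph were picked by hand. The share of all genes that separate the 7 from the 192 is not given. Ang4, a ribonuclease with antibacterial activity, ran from 0.707 to 44.9 in the 7 (median 2.40) and from 50.3 to 1043 in the other 192 (median 244), per 10000 non-Defa UMIs. The groups did not overlap. Gm14851, which RefSeq names Defa38, ran from 4.98 to 33.3 in the 7 (median 9.50) and from 27.8 to 2379.9 in the other 192 (median 1158), and 1 of the 192 lay within the range of the 7. Mptx2 ran from 0.599 to 238 in the 7 (median 1.42) and from 0 to 1124 in the other 192 (median 156), with 1 high value among the 7. Mmp7 did not separate them: it ran from 25.8 to 108 in the 7 (median 61.2) and from 5.85 to 114 in the other 192 (median 46.2).

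Several genes of goblet and other secretory cells were higher in the 7. Spink4, a protease inhibitor of secretory cells, ran from 1045 to 1929 in the 7 (median 1569) and from 20.3 to 1030.2 in the other 192 (median 207). Those ranges did not overlap. Tff3, a trefoil peptide of goblet cell mucus, ran from 20.2 to 348 in the 7 (median 141) and from 0 to 45.5 in the other 192 (median 10.7), and Fcgbp, a mucus-associated protein, from 0.374 to 66.6 in the 7 (median 10.1) and from 0 to 10.6 in the other 192 (median 1.08). Zg16, a goblet cell lectin, had a median of 3.74 in the 7 and 4.24 in the others, and Rnase1 a median of 31.8 and 4.76. Of the 7, 5 belonged to the 66 barcodes with the lowest Defa21 plus Defa22 share. Without the 7, the log2 ratio of Rnase1 between the highest and lowest barcodes was -1.88 and rho was again -0.64.

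Outside the Defa-prefixed genes, a few transcripts filled much of the Paneth RNA. Of 4226831 non-Defa UMIs in the 199 barcodes, 12 genes with at least 1% each held 57.6%, and the same genes held 8.10% in the 1687 other Epcam-positive barcodes that passed the limits. Those others had a median of 24271 UMIs, a median Defa share of 0.248% and 40283604 non-Defa UMIs, and served as the comparison throughout. The 12 were Gm14851, AY761184, Lyz1, Itln1, Spink4, Gm42418, Ang4, Mptx2, Clps and the mitochondrial mt-Co3, mt-Atp6 and mt-Co1. Levels are given as CPM, without the Defa genes in the sum, and folds as log2 ratios of Paneth over other epithelial barcodes.

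The typical gene lay below 0 on this scale. Of 10223 genes compared, 170 were at least 4-fold higher in the Paneth barcodes (1.66%) and 1560 at least 4-fold lower (15.3%), and the median log2 ratio was -1.10. Measured from that median gene, 409 were at least 4-fold higher (4%) and 264 at least 4-fold lower (2.58%). With the genes of at least 1% also left out of the scaling, 418 were higher and 191 lower. A ratio is therefore read below against the median of -1.10 as well as against 0. With Defa genes kept in the scaling, 81 were higher and 7250 lower.

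**Figure D2:**
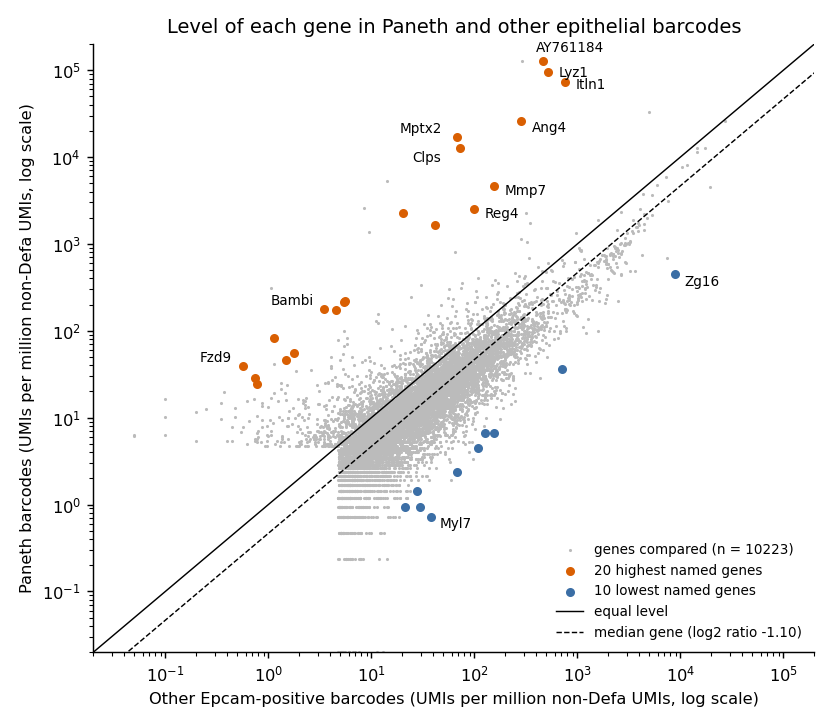
Level of 10223 genes in the Paneth barcodes (y axis) and in the other Epcam-positive barcodes (x axis), both in UMIs per 1000000 non-Defa UMIs on log scales, with genes at 0 on the axis. The 20 highest named genes lie far above the line of equal level, and most genes lie near the dashed line of the median gene at a log2 ratio of -1.10.

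Transcripts of antimicrobial proteins were among the most abundant. Lyz1 per 10000 non-Defa UMIs ran from 32.6 to 2289.5 with a median of 766 in the Paneth barcodes and from 0 to 443 with a median of 2.10 in the others. All 199 Paneth barcodes lay above the median of the others, and the ranges overlapped. Summed, Lyz1 stood at 95051 against 515 CPM (log2 ratio 7.53, 7.51 to 7.55). Mptx2 ran from 0 to 1124 with a median of 151 in the Paneth barcodes and from 0 to 335 with a median of 0 in the others, with 17189 against 68.0 CPM (log2 ratio 7.98, 7.93 to 8.04).

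Itln1, an intelectin that binds microbial sugars, ran from 47.3 to 1689 with a median of 713 in the Paneth barcodes and from 0 to 592 with a median of 1.77 in the others, with 73899 against 757 CPM (log2 ratio 6.61, 6.59 to 6.63). Ang4 ran from 0.707 to 1043 with a median of 235 in the Paneth barcodes and from 0 to 302 with a median of 0.451 in the others (log2 ratio 6.52, 6.49 to 6.55). For both, every Paneth barcode lay above the median of the others. Reg4, a secreted lectin, ran from 0 to 123 with a median of 19.6 in the Paneth barcodes and from 0 to 205 with a median of 0 in the others (log2 ratio 4.68, 4.63 to 4.73). Ccl6, a chemokine, had a ratio of 2.82, and Ang, a relative of Ang4, 2.06.

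Not all antimicrobial genes were higher. Of 19 members of this list that could be compared, 8 were at least 4-fold higher and 6 at least 4-fold lower, and the list's median was -0.22, beside 1.66% and 15.3% of all genes and a median of -1.10. Measured from the median gene, 8 were higher and 2 lower. Reg3b, an antibacterial lectin, ran from 0 to 43.9 with a median of 5.17 in the Paneth barcodes and from 0 to 1419 with a median of 2.59 in the others (log2 ratio -3.43, -3.48 to -3.38), so the median barcode was higher among the Paneth barcodes although the sum was lower. Reg1, a relative of it, had -4.02 and Ccl25, a chemokine that attracts gut lymphocytes, -2.97. Reg3g stood at -0.17, which is 0.93 above the median gene, and turned sign under 5 alternatives, and Lyz2, the lysozyme of macrophages, at -0.41. The median level of Reg3g was 14.9 in the Paneth and 1.72 in the other barcodes. Of the 199 Paneth barcodes, 187 lay above the Reg3g median of the others.

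Genes of defensins under other symbols followed the Defa genes. By RefSeq synonyms, 5 counted gene models are alpha-defensins. Gm14851 (Defa38) alone held 12.9% of the non-Defa UMIs of the Paneth barcodes, at 129021 against 290.1 CPM, a log2 ratio of 8.80. Gm15292 (Defa40) had 8.54, Gm15293 (Defa41) 8.27, Gm7849 (Defa42) 8.19 and Gm7861 (Defa43) 7.20. AY761184 stood at 126558 against 463 CPM (log2 ratio 8.09, 8.07 to 8.12).

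Other secreted proteins among the named genes were Mmp7 and Clps. Mmp7 ran from 5.85 to 114 with a median of 46.5 in the Paneth barcodes and from 0 to 109 with a median of 0 in the others per 10000 (log2 ratio 4.89, 4.85 to 4.93). Clps, the colipase that lipases need on fat droplets, ran from 9.81 to 321 with a median of 88.7 in the Paneth barcodes and from 0 to 49.6 with a median of 0 in the others (log2 ratio 7.48, 7.43 to 7.54). For both, all 199 Paneth barcodes lay above the median of the others. Pnliprp2 and Pnliprp1, relatives of pancreatic lipase, had 6.80 and 5.25, and Habp2, a serine protease that binds hyaluronan, 5.32 with UMIs in 83.9% of Paneth and 5.45% of other barcodes.

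The list of other Paneth genes had 13 members that could be compared, of which 11 were at least 4-fold higher and 1, the phospholipase Plb1 (-2.95), at least 4-fold lower, with a median of 4.05. From the median gene 12 were higher and 0 lower. The list was assembled with earlier results of these data known, so its direction is not independent evidence. Spink4 had 33037 against 4985 CPM (2.73). Guca2b, the hormone uroguanylin, had 2.32 and Copz2, a coat protein of Golgi vesicles, 4.05. Slc30a2, the transporter that loads zinc into secretory granules, was the 1 member of 12 zinc genes that was at least 4-fold higher (log2 ratio 2.11, 1.90 to 2.32), and 3 of the 12 were at least 4-fold lower, beside 1.66% and 15.3% of all genes. From the median gene 1 was higher and 0 lower.

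The 20 highest named genes also included receptors and regulators at low counts. Bambi, a decoy receptor that damps TGF-beta signals, ran from 0 to 9.82 with a median of 1.25 in the Paneth barcodes and from 0 to 8.45 with a median of 0 in the others per 10000, with 752 UMIs in the Paneth and 141 in the other barcodes (log2 ratio 5.67, 5.41 to 5.94). Fzd9, a Wnt receptor, had 166 and 23 UMIs (log2 ratio 6.10, 5.47 to 6.80). Nupr1 had 5.31, Tmed6, a cargo protein of the early secretory route, 5.31, and Samd5 5.28. Smim38 (6.18), Sntb1 (104 Paneth and 31 other UMIs), the disulfide isomerase Pdia2 (4.98) and the complement regulator C4bp (4.97) completed the named genes, on 104 to 349 UMIs in the Paneth barcodes.

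Of the signals that Paneth cells are known to give the stem cells, Wnt3 had the highest ratio. It ran from 0 to 4.68 with a median of 0.731 in the Paneth barcodes and from 0 to 5.78 with a median of 0 in the others per 10000, with a UMI in 67.8% of Paneth and 6.70% of other barcodes and 99.1 against 5.44 CPM (log2 ratio 4.19, 3.95 to 4.43). Egf, the epidermal growth factor, rested on 50 and 64 UMIs (log2 ratio 2.90, 2.33 to 3.45). The Notch ligand Dll4 had 26 and 236 UMIs (log2 ratio 0.07, -0.57 to 0.66), an interval that includes 0, and its sign turned under 6 of the alternatives. Dll1, another Notch ligand, had -1.53 and Tgfa, a ligand of the epidermal growth factor receptor, -0.70. Of 10 ligands that could be compared, 2 were at least 4-fold higher and 4 at least 4-fold lower, beside 1.66% and 15.3% of all genes. From the median gene 2 were higher and 0 lower.

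Among 14 Wnt receptors and targets, Ephb3, the receptor that keeps Paneth cells at the crypt base, was the 1 gene at least 4-fold higher (116 and 165 UMIs, log2 ratio 2.74, 2.39 to 3.10). Its relative Ephb2 had -0.74, which is 0.36 above the median gene. Fzd5, the receptor through which Wnt signals mature Paneth cells, had -2.42 and Cd44 -2.06, the 2 genes at least 4-fold lower, a share close to the 15.3% of all genes (1.66% were higher). From the median gene 1 of the 14 was higher and 0 lower. Axin2, a general Wnt target, had -1.47, which is -0.37 from the median gene. Tcf7l2, the TCF factor of the intestine, had 0.03 and changed sign under 8 of the alternatives.

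Of the transcription factors of the secretory line, Bhlha15, which builds up the secretory apparatus, was at least 4-fold higher (301 and 232 UMIs, log2 ratio 3.63, 3.38 to 3.88). Atoh1, which commits cells to the secretory line, had 1.19, Spdef, a factor of goblet and Paneth maturation, 0.79, and Sox9, needed for Paneth cells to form, 0.82, the last 2 of which lay below 0 with Defa genes in the scaling. Hes1, the Notch target that opposes Atoh1, had -2.23 and Nr5a2 -2.87. Of 15 factors, 1 was at least 4-fold higher and 3 at least 4-fold lower, beside 1.66% and 15.3% of all genes, and 6 and 1 when measured from the median gene, beside 4% and 2.58% of all genes.

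The machinery of the endoplasmic reticulum was placed differently by the 2 readings. None of its 36 genes differed 4-fold in either direction, and the median was -0.09, but 33 of the 36 lay above the median gene and 6 were at least 4-fold higher than it, where 5110 of all 10223 genes and 4% of them did. The highest were Spcs3, a signal peptidase subunit (1.43), Ern2, a stress sensor of mucus-secreting epithelium (1.28), Tram1, a translocation channel protein (1.07), and P4hb, a disulfide isomerase (1.02), the last 2 of which lay below 0 with Defa genes in the scaling. Xbp1, the factor of the unfolded protein response, had -0.11, which is 0.99 above the median gene, and turned sign under 4 alternatives. Of 10 autophagy and innate sensing genes, Atg7, an enzyme of autophagosome formation, was at least 4-fold higher (log2 ratio 2.41, 2.19 to 2.63) and Nlrp6, an inflammasome sensor, at least 4-fold lower (log2 ratio -2.89, -3.20 to -2.60), beside 1.66% and 15.3% of all genes. From the median gene 2 of the 10 were higher and 0 lower. Atg16l1, linked to Paneth granules in Crohn disease, had -0.48.

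Most listed genes of enterocytes, enteroendocrine and tuft cells were at least 4-fold lower, as were 15.3% of all genes, and 2.58% of all when measured from the median gene. Only 10.9% of all genes lay above 0. Of 18 enterocyte genes, 15 were at least 4-fold lower (median -2.83) and 8 when measured from the median gene, with the fatty acid binding protein Fabp1 at -3.99. Of 12 enteroendocrine genes 11 (median -3.89) and of 8 tuft cell genes 8 (median -3.73) were at least 4-fold lower, and 10 and 7 from the median gene. All 7 class II antigen presentation genes were at least 4-fold lower (Cd74 -2.70), but none was from the median gene. For glycolysis these counts were 8 of 13 and 0, and for proliferation 4 of 10 and 1, with Mki67 at -2.80. Of 10 stem cell genes, 1 was at least 4-fold lower and none from the median gene, which is near the share over all genes. Lgr5 had -0.41, or 0.69 above the median gene, and Olfm4 -1.71. Olfm4 nevertheless had a UMI in 68.8% of Paneth and 57.1% of other barcodes. Of 9 goblet cell genes, 3 were at least 4-fold lower (median -1.30, ratios of sums), and from the median gene 1 was higher and 2 lower. Of 11 early stress genes, 4 were at least 4-fold lower (median -1.58) and none from the median gene.

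The 10 lowest named genes ranged from -5.73 to -4.27. They were the myosin light chain Myl7 (3 Paneth UMIs, log2 ratio -5.73, -8.01 to -4.18), the gasdermin Gsdmc3 (-4.97), Sprr2a3 (-4.83), the glutathione transferase Gsta1 (-4.58), Chp2 (-4.55), the prostaglandin D synthase Hpgds (-4.48), the antibody light chain Iglc3 (-4.31), Zg16 (-4.28), the sulfate transporter Slc13a1 (-4.27) and Mgat4c (-4.27). Iglc3 turned to 1.09 when barcodes with a UMI of any of 5 genes of leukocytes, endothelium and fibroblasts were left out.

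Markers of cells outside the epithelium had medians near 0 in the Paneth barcodes, apart from antibody genes. The summed level of 8 plasma and B cell genes ran from 5.51 to 3371 per 10000 non-Defa UMIs with a median of 22.6, and was over 100 in 3 barcodes. In the other epithelial barcodes it ran from 0 to 7840 with a median of 5.87. A single Paneth barcode held 71.0% of the Igkc UMIs. The 8 macrophage genes summed to at most 11.7, the 8 T and natural killer genes to at most 0.802, with 1 of the 8 at 0, the 9 endothelial genes to at most 19.9, and the 9 fibroblast and muscle genes to at most 225, with 1 barcode over 100. The medians were 0.303, 0, 0.424 and 0. The 18 enterocyte genes summed to 0 to 351 with a median of 8.63, and the 10 goblet cell genes to 9.91 to 678 with a median of 43.3, with 9 barcodes over 100. In the other epithelial barcodes the goblet sum ran from 0 to 5429 with a median of 4.35, so the median barcode was higher among the Paneth barcodes although 5 of the 9 goblet genes compared had a lower sum. When barcodes with a UMI of any of those 5 genes of leukocytes, endothelium and fibroblasts were left out of both sets, 161 genes were at least 4-fold higher and 1462 lower. The reporter feature for green fluorescent protein had 3 UMIs in the Paneth and 193 in the other barcodes.

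RNA of Paneth genes was also found outside the Paneth barcodes. Lyz1 had a UMI in 100% of Paneth barcodes, in 95.5% of the other epithelial barcodes (median 24271 UMIs) and in 78.3% of 415 Epcam-negative barcodes with the leukocyte gene Ptprc (median 3015 UMIs). The level of Lyz1 relative to Defa24 was 0.129 in the Paneth barcodes, 0.125 in the other epithelial and 0.159 in the leukocyte barcodes. That of Clps was 0.0174, 0.0175 and 0.0141, in the same order, and also stayed close, while others differed more. That of Mmp7 was 0.00629, 0.0380 and 0.00965, that of Itln1 0.101, 0.185 and 0.122 and that of Defa30 0.273, 0.142 and 0.261. After thinning each barcode to 5000 non-Defa UMIs, which left 161, 1428 and 97 barcodes (38, 259 and 318 were too shallow), Lyz1 was found in 100%, 64.4% and 81.4%.

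Per barcode and without thinning the order was the opposite, with 20732 Lyz1 UMIs in 1687 other epithelial and 1217 in 415 leukocyte barcodes. The thinned shares for Mptx2 were 95.7%, 14.7% and 21.6%, and for Wnt3 35.4%, 2.59% and 0%. Those for Bambi were 51.6%, 2.24% and 1.03%, and for Bhlha15 26.1%, 3.36% and 1.03%. Free RNA and RNA made in the other cells cannot be told apart here.

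The levels changed along the Defa share, also below the limit. Among Epcam-positive barcodes, 179 had a Defa share of 1% to 5%, 26 of 5% to 10% and 24 of 10% to 20%, and the Paneth barcodes fell into 55 with 20% to 40%, 113 with 40% to 60% and 31 above. Lyz1 stood at 217 CPM under 1%, and at 9444, 15426, 47543, 97692 and 116561 CPM in the last 5 of these bands. Wnt3 stood at 2.91 CPM under 1%, and in those bands at 70.1, 102, 75.7, 99.5 and 112 CPM, so it was near its highest level already under the limit. The band from 20% to 40% was also the shallowest among the Paneth barcodes, with a median of 9449 UMIs and 15.3% mt- UMIs, against 32556 and 2.61% from 40% to 60%.

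Across the limit itself, from the band of 10% to 20% to that of 20% to 40%, the goblet cell genes Zg16 and Tff3 were lower. Zg16 stood at 8106 CPM in the 1458 barcodes under 1%, at 19669, 22796 and 20557 CPM in the bands of 1% to 20%, and at 423, 434 and 533 CPM in the Paneth barcodes. Tff3 stood at 4466 CPM under 1%, at 13854 CPM between 10% and 20%, and at 5041, 1571 and 1948 CPM in the 3 Paneth bands. Spink4 stood at 3036 CPM under 1%, at 61958 CPM between 10% and 20%, and at 48951, 29629.6 and 32958 CPM in the Paneth bands. The Spink4 and Tff3 values between 20% and 40% rested largely on 6 of the 7 barcodes with little Defa30. Without them, as computed after seeing the data, the other 49 barcodes of that band had 13606 CPM of Spink4 (13258 to 13960.2), 928 CPM of Tff3 (839 to 1024) and 419 CPM of Zg16 (360.2 to 486). Both Spink4 and Tff3 were then lowest in that band among the Paneth bands. Just under the limit, Mmp7 and Reg4 stood at 4011 and 3395 CPM between 10% and 20%. The bands under the limit hold few barcodes, so these levels rest on 26 and 24 of them.

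**Figure D3:**
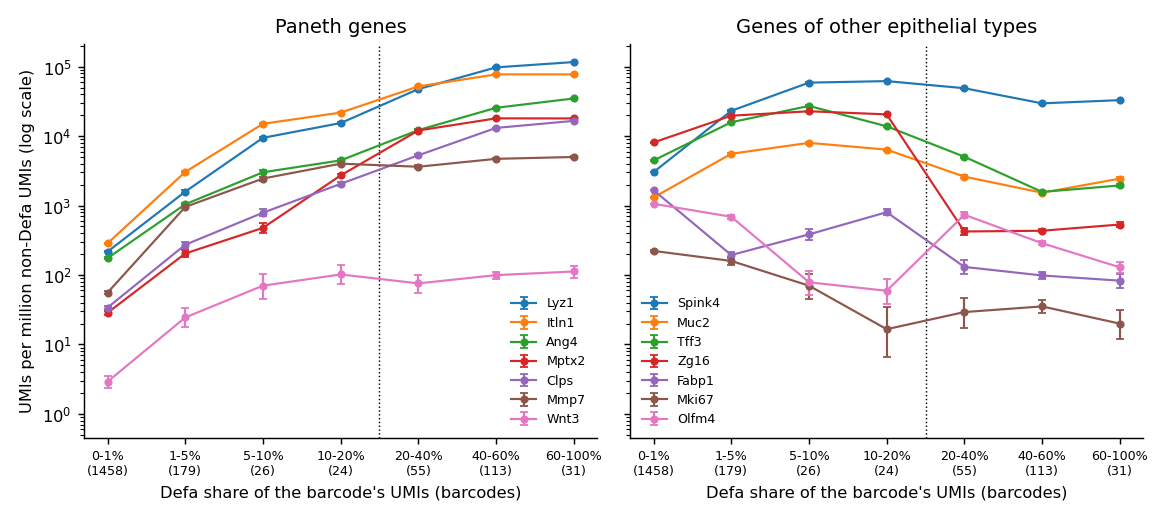
Level of Paneth genes (left) and of genes of other epithelial types (right) in UMIs per 1000000 non-Defa UMIs (y axis, log scale, bars are exact Poisson 95% intervals) over bands of Defa share (x axis, number of barcodes in brackets), with the dotted line at the 20% limit. Lyz1 climbs through all bands, while Zg16 falls from 20557 to 423 across the limit.

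The ratios also depended on which epithelial cells were compared. The 3 subsets below leave out 358 barcodes that met more than 1 of their rules. Against 380 goblet-type barcodes (Muc2 and Fcgbp detected), 120 genes were at least 4-fold higher (1.19%) and 902 lower (8.95%). The counts were 280 (2.79%) and 2116 (21.1%) against 162 Lgr5-positive barcodes, and 528 (5.52%) and 1515 (15.8%) against 297 absorptive-type barcodes, which had at least 2 of Alpi, Apoa4 and Sis. All 20 highest named genes were at least 4-fold higher in each, which largely restates their choice, since they were picked on the same Paneth barcodes over a set that holds these subsets. Lyz1 had 6.85, 8.15 and 8.90, in this order, and Wnt3 3.27 (93 UMIs, 2.94 to 3.61), 4.46 (15 UMIs, 3.72 to 5.31) and 8.15 (3 UMIs, 6.59 to 10.43).

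Spink4, Ccl6 and Atoh1 lay closer to goblet-type than to Lgr5-positive barcodes. Spink4 had 0.92 against goblet-type but 7.16 against Lgr5-positive barcodes, Ccl6 0.95 and 7.70, and Atoh1 -0.63 and 5.95. Zg16 had -6.27, Fcgbp -5.45 and Tff3 -3.21 against goblet-type barcodes, although Fcgbp took part in choosing them. Against Lgr5-positive barcodes, Ephb3 had 0.84, Sox9 -0.97 and Olfm4 -4.06.

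The same rule found Paneth barcodes or spots in the other small intestinal libraries. It was met by 5 of 540 barcodes of control organoids (0.926%, 0.301% to 2.15%) and by 14 of 1037 of cocultured organoids (1.35%, 0.740% to 2.25%), and the intervals overlapped. It was met by 146 of 2093 (6.98%, 5.92% to 8.15%) and 73 of 2569 spots (2.84%, 2.23% to 3.56%) of the small intestine sections. Spots are small regions that can hold several cells. In the large intestine, where Paneth cells are normally absent, it was met by 0 of 6188 barcodes, which allows a share of up to 0.0485% when the limit is set at 3 counts of the total (exact binomial upper bound 0.0596%). It was met by 0 of 2093 and 0 of 2177 spots, with exact binomial upper bounds of 0.176% and 0.169%.

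The 20 highest named genes were read in these libraries, comparing barcodes that met the rule with other Epcam-positive ones and, in sections, the tenth of spots with the highest Defa share (210 and 258) with the rest. In control organoids 13 could be compared and 13 lay above 0, where 34% of all genes did, and 12 were at least 2-fold higher (8.88%). In cocultured organoids these were 15 of 15 (25.8%) and 15 (8.73%). In the sections they were 19 of 19 (61.6%) and 19 (15.6%), and 19 of 19 (66.6%) and 18 (21.5%). Lyz1 had 7.48 in control organoids, 8.81 in cocultured organoids and 4.05 and 4.39 in the sections. Wnt3 had 6.17, 5.95, 3.27 and 4.26. In sections, fewer Paneth cells and less RNA per cell cannot be told apart.

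**Figure D4:**
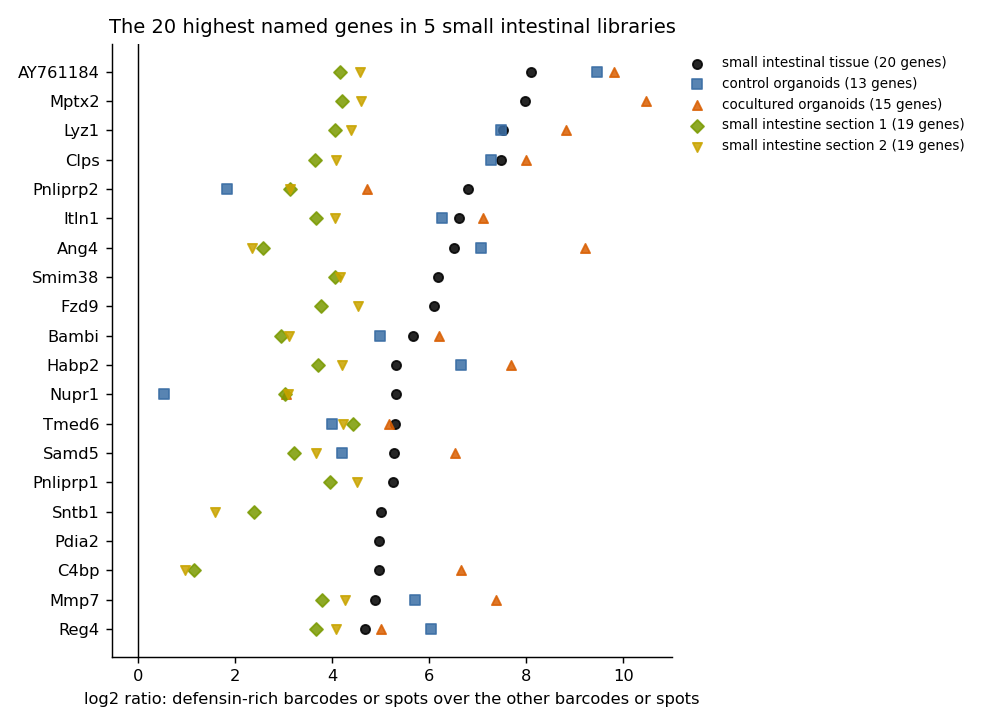
log2 ratio (x axis) of the 20 highest named genes (y axis) in defensin-rich barcodes or spots over the other barcodes or spots of 5 small intestinal libraries, with genes of too few UMIs left out. Every point lies above 0, and the sections lie below the tissue barcodes for every gene shown.

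Organoid Paneth barcodes had few UMIs of some transcripts that were abundant in tissue. Mptx2 had 9 UMIs in the 5 barcodes of control organoids and 33 in the 14 of cocultured organoids, and was at 0 in 4 of the 5 and 9 of the 14. A single barcode held all 9 of the former, and 1 held 27 of the latter. Defa21 plus Defa22 held at most 0.367% of the Defa UMIs of a control and 6.47% of a cocultured barcode, and under 1% in 13 of the 14. Defa24 led in each of the 19, with 59.8% to 83.2% in the control and 43.0% to 84.7% in the cocultured barcodes. In sections, Defa21 held 7.87% and 5.21% of the Defa UMIs and Mptx2 had ratios of 4.20 and 4.59.

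Defa17 held a smaller share in the tissue barcodes than in the other small intestinal libraries. It made up 0.472% of the Defa UMIs of the 199 tissue barcodes, 10.7% and 10.2% in control and cocultured organoids, and 9.18% and 13.4% in the sections. Defa24 held 60.8% in the tissue and 44.1% and 44.9% in the sections. Library, sample and animal cannot be told apart in this difference, and reads of near-identical copies may have been assigned unequally.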

How the data were processed

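Libraries were mapped and counted with Cell Ranger 6.0.1 (single cells) and Space Ranger 1.2.1 (sections), per the file headers, on mm10, per the submitters' processing notes. The annotation release is not given in the sources used here. The deposited matrices hold raw UMI counts per gene and barcode, not normalized. Groups came from the sample titles. Of 32285 gene IDs, 32158 matched the RefSeq table used for synonyms.

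Barcodes were kept at 500 or more genes and at most 20% mt- UMIs. UMIs were summed per set, without Defa genes in the scaling, and compared as log2 ratios with exact intervals for 2 counts (level 95%). Counts under 3 were set to 3. Genes were compared where the higher level was worth at least 20 UMIs at the smaller depth. Named genes were those of the gene lists, and the 20 highest and 10 lowest ratios among genes whose higher group held 100 or more UMIs and a UMI in 10% or more of its barcodes, without mt-, ribosomal protein, Gm-numbered, Rik and sex genes. Other genes were named after their values were seen: Rnase1, the genes that differed by Defa21 plus Defa22 share, the defensins under other symbols and the genes of at least 1% of UMIs. Gene lists and the Paneth barcodes were chosen with earlier results of these data known. Doublet scores came from Scrublet in scanpy 1.11.5, at 0.8% per 1000 barcodes, and the highest were removed only as an alternative. Promoter windows were aligned globally. Intervals cover counting error only, and the ratio was tested on simulated data. Python 3.11.15, numpy 2.4.6, scipy 1.17.1, pandas 2.3.3 and matplotlib 3.10.9 were used.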

Additional observations from a re-analysis of the deposited data

Results flagged for a closer look

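For 7 genes the summed level of the Paneth barcodes lay below that of the other epithelial barcodes in tissue and above it in both organoid libraries. The difference between tissue and organoids was not tested, and the organoid values rest on 5 control and 14 cocultured barcodes. The share of all genes with this pattern is not given here. The median gene itself stood at -1.10 in tissue, -0.29 in control and -0.67 in cocultured organoids. In tissue Tff3, Klf4 and Fos therefore lay near the median gene. Among goblet cell genes, Zg16 had a log2 ratio of -4.28 in tissue, 5.36 in control and 3.05 in cocultured organoids, Fcgbp -3.52, 4.53 and 4.52, and Tff3 -1.30, 5.03 and 5.76. In the 2 small intestine sections Zg16 had -2.96 and -2.51, Fcgbp -2.27 and -1.91, and Tff3 -1.48 and -1.55, the sign of the tissue barcodes. In tissue this held for sums and not for the median barcode. Per 10000 non-Defa UMIs, the medians of Paneth and other barcodes were 4.23 and 1.14 for Zg16, 1.10 and 0.357 for Fcgbp, and 10.9 and 0.929 for Tff3. Klf4, a factor of goblet cell maturation, had -1.48 in tissue, 2.88 and 2.85 in organoids and -1.85 and -1.78 in the sections. The early response genes Fos and Fosb had -1.58 and -2.09 in tissue. In control and cocultured organoids Fos had 1.02 and 0.55 and Fosb 2.41 and 2.08. Sct, the hormone secretin, had -1.82 in tissue and 2.29 and 1.42 in organoids, with medians of 0.579 in Paneth and 0 in other tissue barcodes.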

How the results depend on the processing

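The number of Paneth barcodes was 341 at 200 or more genes, 151 at 1000 or more, 141 at a limit of 10% mt- UMIs, 267 at 40% and 270 with none, 234 at a Defa share of 10% and 144 at 40%. Genes at least 4-fold higher and lower numbered 81 and 7250 with Defa genes in the scaling, 80 and 837 at 100 UMIs, 409 and 264 from the median gene, and 418 and 191 without genes of at least 1%. The last 2 scalings, and the limit to barcodes with Epcam, were chosen after seeing the data. Of 1173 ratios of 69 genes under 17 alternatives, 649 moved by no more than their interval, 523 moved further and 1 reversed: Iglc3 at 1.09 without barcodes with a UMI of 5 genes of other cell types. In all, 47 ratios of 18 genes changed sign, most of them in genes near 0. The cause was not tested. The organoid ratios rest on few barcodes, 5 control and 14 cocultured, and genes such as Fzd9 and Egf on few UMIs. No paired analysis was possible because no test was made and the sections that share numbers are technical duplicates.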
